A study of Homo sapiens with 6 samples.

Results

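The genes described here encode chaperones and folding enzymes of the endoplasmic reticulum (ER), components of ER-associated degradation (ERAD) and the sensors of the unfolded protein response. They were put together by function, as a list of 34 gene symbols. The rule for the list uses no measured value, although the list was drawn up with earlier results of these data known. Of the 34 genes, 33 have a probe set on the array that is annotated to that symbol alone, among 19775 genes with such a probe set in all. The remaining gene, SYVN1, which encodes an ERAD ubiquitin ligase, shares its probe set with a microRNA gene and was not analysed here. By role, the list holds 16 chaperones and folding enzymes, 10 ERAD genes, 4 sensors and transcription factors, and 4 genes of translocation, export and disulfide oxidation.

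RNA came from 6 cultures, with 1 Affymetrix expression array each. The HuccT1 line (written HuCCT1 in the study) is a bile duct carcinoma line, and KKU-100 is a poorly differentiated cholangiocarcinoma line. Each line received the solvent control, regorafenib at 1 μM (low dose) or regorafenib at 10 μM (high dose), the doses given in the sample labels. Regorafenib is an oral inhibitor of several receptor and intracellular kinases. The study gives other doses than the labels and a treatment of hours, whereas the labels give no time. The labels also describe all cells of both lines as stably transduced and selected with puromycin, and name no construct. The RNA is that of whole cultures, so fewer cells with a transcript and less of it per cell cannot be told apart. As each condition had 1 array, differences within a line have no replicate error and carry no p-value. A gene was counted as higher or lower when its signal differed by more than 1.5-fold. Outside the closing checks of the processing, counts over the whole list stand beside the share of all genes past that cutoff in the same comparison and direction. The counts by role, by motif and for further lists are to be read against that share as well.

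Proteins that enter the secretory pathway are folded in the ER by chaperones such as HSPA5 (BiP), and those that fail to fold are moved back to the cytosol and degraded by ERAD. The sensors ERN1 (IRE1), ATF6 and EIF2AK3 (PERK) respond when unfolded proteins accumulate. ERN1 splices the XBP1 transcript, ATF6 is cleaved to an active factor, and both induce chaperone and ERAD genes, whereas EIF2AK3 phosphorylates a translation factor, which favours translation of ATF4 and its targets. ATF4 can also be induced by other kinases that sense lack of amino acids, haem or mitochondrial function. Arrays of this kind measure total transcript near the 3′ end, so neither XBP1 splicing nor activation of a sensor protein was measured.

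The upstream elements that carry these responses were read from the RefSeq promoters of GRCh38.p14, which cover 250 bases before and 50 bases after each start and were given for 30 of the 34 genes (not for PDIA3, DERL1, DERL3 and SEC24D). The ER stress response element (ERSE), bound by ATF6 with the factor NF-Y, was searched on both strands as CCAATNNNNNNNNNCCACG. It was found in 27 of 35116 promoters (0.0769%), and in 8 of the 30 genes, namely HSPA5, HSP90B1, CALR, CANX, PDIA6, CRELD2, XBP1 and ERO1B. The ERSE of 4 of these genes is shown because these are classical targets of the response, with both fixed parts in capitals and each site written in the direction of the motif. HSP90B1 holds ERSE at 2 positions, and the one farther from the start is shown.
HSPA5, chr9:125241391-125241409, minus strand: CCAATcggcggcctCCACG
HSP90B1, chr12:103930216-103930234, plus strand: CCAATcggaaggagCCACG
CALR, chr19:12938384-12938402, minus strand: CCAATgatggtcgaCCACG
XBP1, chr22:28800603-28800621, minus strand: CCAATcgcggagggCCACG

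The second element, ERSE-II, was searched as ATTGGNCCACG and was found in 19 promoters (0.0541%), including those of HERPUD1, HYOU1 and SDF2L1. HYOU1 holds it at 2 positions, and the one farther from the start overlaps by 5 bases with the XBP1 element TGACGTGG, which was found in 256 promoters (0.729%) and, among the 30 genes, in HYOU1 and DNAJC10. The ATF4 element TGATGNAA was found in 1270 promoters (3.62%), and HERPUD1 was the only 1 of the 30 genes with it. An ERSE-II site of each of the 3 genes is shown with its fixed parts in capitals, for HYOU1 the one nearer to the start.
HERPUD1, chr16:56932025-56932035, plus strand: ATTGGgCCACG
HYOU1, chr11:119057274-119057284, plus strand: ATTGGaCCACG
SDF2L1, chr22:21642114-21642124, minus strand: ATTGGtCCACG

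HERPUD1 and HSPA5 are given at greater length, as the ERAD gene with the largest difference in HuccT1 and the best-known chaperone. The 250 bases before the start of HERPUD1 (chr16:56931892-56932141, plus strand) hold the ATF4 element, in capitals as it reads on the strand shown, followed by ERSE-II in capitals. Their first bases lie 176 and 117 bases before the start.
HERPUD1: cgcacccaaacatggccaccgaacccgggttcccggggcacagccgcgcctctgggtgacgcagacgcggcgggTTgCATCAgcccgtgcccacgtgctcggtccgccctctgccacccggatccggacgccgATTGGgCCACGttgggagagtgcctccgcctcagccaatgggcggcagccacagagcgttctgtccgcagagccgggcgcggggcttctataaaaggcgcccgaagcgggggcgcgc
The 250 bases before the start of HSPA5 (chr9:125241344-125241593, minus strand) hold 1 exact ERSE, in capitals, 66 bases before the start.
HSPA5: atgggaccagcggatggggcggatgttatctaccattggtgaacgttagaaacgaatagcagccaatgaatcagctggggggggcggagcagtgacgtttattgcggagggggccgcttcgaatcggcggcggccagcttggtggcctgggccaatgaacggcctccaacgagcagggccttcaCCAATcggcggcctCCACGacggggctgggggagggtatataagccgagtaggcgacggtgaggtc
These are matches to letters in a reference, and binding was not measured.

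The medians of the 6 arrays lay between 28.8 and 29.3 signal units. The ratio of the 3′ to the 5′ control probe sets of ACTB, a sign of RNA integrity, was 1.13 to 1.27 on 5 arrays and 1.68 on the KKU-100 high-dose array, while that of GAPDH was 1.03 to 1.06 on all 6. The biliary keratins KRT8 and KRT18 had signals of 4534 to 12615 in both lines. KRT19 and EPCAM, at 6432 to 9321 in HuccT1, were at 8.62 to 11.1 in KKU-100, near the floor of the array. Thus 2 of the 6 biliary markers examined were not seen in the cells labelled KKU-100. Of 15 markers of hepatocytes, fibroblasts, leukocytes and endothelial cells, 9 passed the level filter in HuccT1 and 6 in KKU-100. Among them were COL1A1 at 135 to 197 on all arrays and CD74 at 226, 312 and 384 in HuccT1 (solvent, low and high dose), while ALB, PTPRC and CDH5 were at 6.96 to 10.8. The part of other cell types in the results was not tested.

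Few genes of the list passed the cutoff, and those that did were mostly the same small set. In HuccT1, 32 of the 33 genes passed the level filter (ERO1B did not), and in KKU-100 all 33 did. At the low dose in HuccT1, HERPUD1 alone was higher, beside 3.68% of all genes, and none was lower, beside 3.32%. At the high dose in HuccT1, 6 were higher (HERPUD1, DNAJB9, SEC24D, EIF2AK3, ERN1 and XBP1), beside 8.23% of all genes, and none was lower, beside 6.44%. At the low dose in KKU-100 the direction was the opposite, with none higher, beside 9.75%, and 6 lower (ERN1, DNAJB9, EIF2AK3, HERPUD1, EDEM3 and DNAJC3), beside 7.32%. At the high dose in KKU-100 none was higher, beside 9.44%, and only EIF2AK3 was lower, beside 4.86%.

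**Figure D1:**
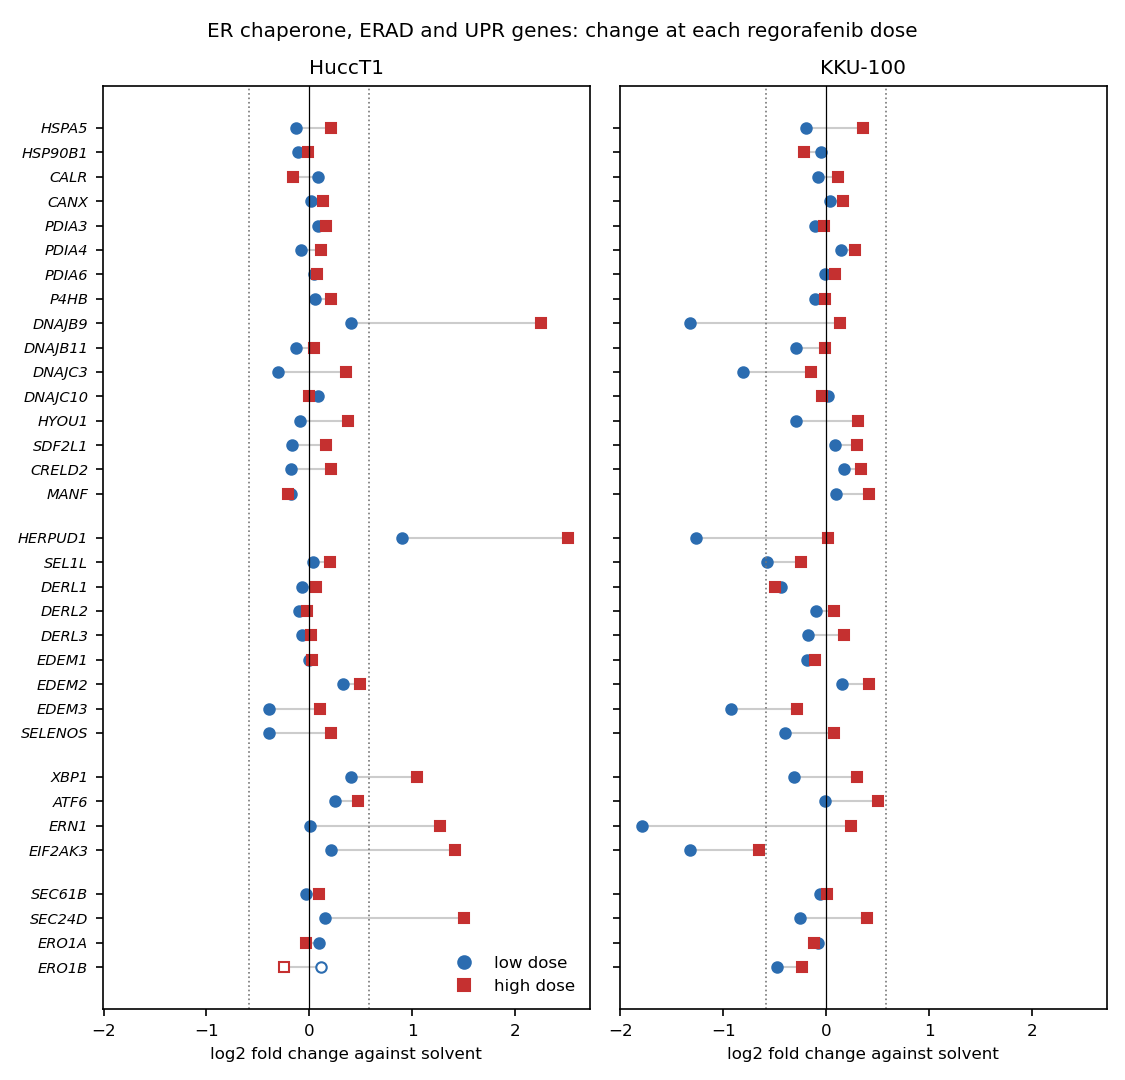
Log2 fold change of each of the 33 measured genes at the low dose (circles) and the high dose (squares) against the solvent array of the same line, 1 array per condition, grouped by role from chaperones at the top to translocation and oxidation at the bottom. Dotted lines mark 1.5-fold, open symbols mark the gene below the level filter, and the 6 genes past the cutoff at the high dose in HuccT1 lie to the right while those past it at the low dose in KKU-100 lie to the left.

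Read from the probe set that stands for each gene, 15 of the 16 chaperones and folding enzymes remained inside the 1.5-fold cutoff against solvent in HuccT1. This held whichever the dose, and 14 did so in KKU-100. HSPA5, the main Hsp70 chaperone of the ER, had signals of 9780, 8932 and 11313 in HuccT1 at solvent, low and high dose, and of 7980, 6952 and 10258 in KKU-100. In both lines the low-dose array was the lowest and the high-dose array the highest, with log2 fold changes against solvent of -0.13 and 0.21 in the former line and -0.20 and 0.36 in the latter. A second HSPA5 probe set of lower signal gave -0.69 at the high dose in HuccT1 and 0.40 in KKU-100, so the direction in HuccT1 depended on the probe set.

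HSP90B1, the Hsp90 of the ER, had signals of 3239, 3012 and 3213 in HuccT1 and of 2214, 2140 and 1907 in KKU-100. It could be read only from probe sets of a kind that can match several genes, since its main probe sets share their annotation with a microRNA gene. Its log2 fold changes against solvent ran from -0.22 to -0.01 over both lines and doses. The lectin chaperones CALR and CANX and the disulfide isomerases PDIA3, PDIA4, PDIA6 and P4HB lay between -0.16 and 0.28 in the same comparisons. For P4HB, 2 further probe sets were at -1.24 and -0.38 on the KKU-100 high-dose array, the array with the high ACTB ratio, against -0.02 for the probe set that stands for the gene. Whether RNA integrity had a part in this was not tested.

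DNAJB9, an ER co-chaperone of HSPA5 that also binds ERN1, stood apart from the other chaperones. Its signals were 513, 680 and 2450 in HuccT1, against 1672, 667 and 1835 in KKU-100. In HuccT1 the high-dose array was 4.78-fold above solvent, the 35th largest increase among 12789 genes. In KKU-100 the low-dose array was 2.51-fold below solvent and the high-dose array was back at the solvent level. The other 2 DNAJB9 probe sets went from 239 to 1277 and from 117 to 938 between solvent and high dose in HuccT1, and were at -1.31 and -1.73 on the log2 scale in low-dose KKU-100, beside -1.33.

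DNAJC3, a co-chaperone that also inhibits EIF2AK3, and HYOU1, an Hsp70-like exchange factor for HSPA5, were singled out after their values were seen. DNAJC3 had signals of 1418, 1151 and 1821 in HuccT1 and of 1649, 939 and 1492 in KKU-100, where the low dose was 1.76-fold below solvent. Its further probe sets gave -0.70, -0.66 and -0.32 on the log2 scale at the low dose in HuccT1, beside -0.30. At the high dose in KKU-100 they gave -0.54, -0.49 and -0.41, beside -0.14. The call for DNAJC3 at the low dose in HuccT1 thus depended on the probe set. The signals of HYOU1 were 1269, 1189 and 1647 in HuccT1, against 908, 742 and 1122 in KKU-100. In both genes and both lines the low-dose array was the lowest. The remaining chaperones and secreted cofactors, DNAJB11, DNAJC10, SDF2L1, CRELD2 and MANF, lay between -0.29 and 0.42 on the log2 scale against solvent.

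**Figure D2:**
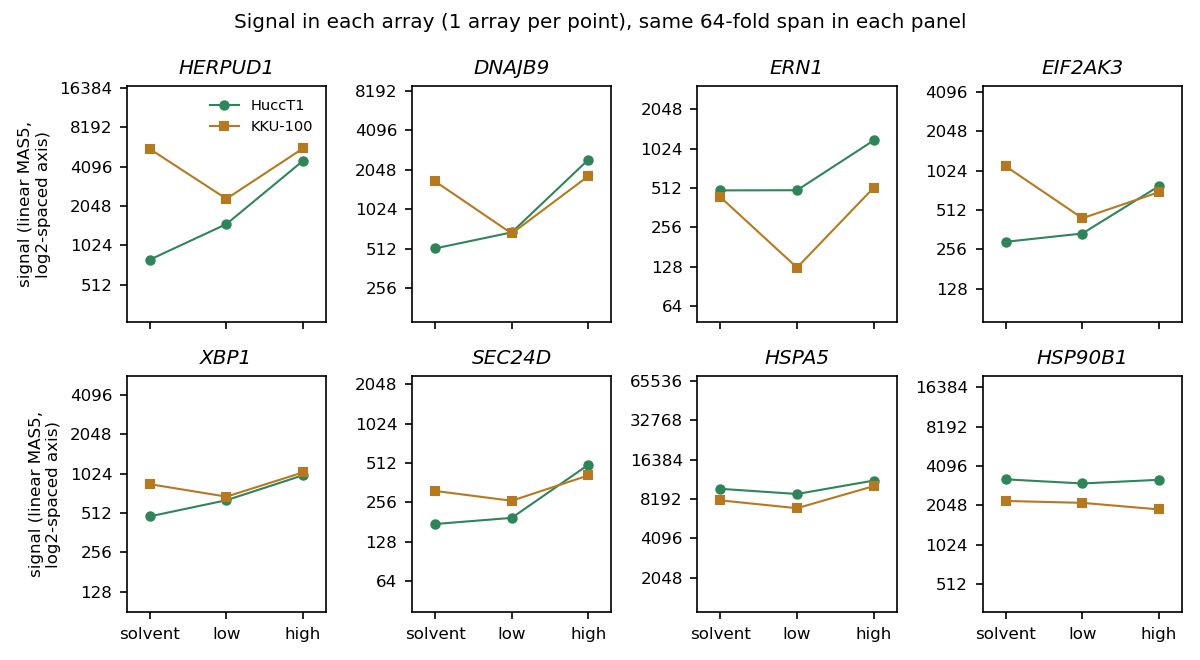
Signal of 8 genes on the solvent, low-dose and high-dose array of HuccT1 (circles) and KKU-100 (squares), each point 1 array, on log2-spaced vertical axes that all span the same 64-fold range. HERPUD1, DNAJB9 and EIF2AK3 start higher in KKU-100 than in HuccT1 and dip at the low dose there, while HSPA5 and HSP90B1 stay close to level.

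Among the ERAD genes, HERPUD1 had the largest difference at both doses in HuccT1 and at the low dose of KKU-100. It encodes a membrane protein that organises the ubiquitin ligase complex of the ER. Its signals were 795, 1490 and 4546 in HuccT1, against 5600, 2325 and 5656 in KKU-100. In HuccT1 it was 1.87-fold above solvent with the low and 5.72-fold with the high dose, the 21st largest increase among 12789 genes. In KKU-100 it was 2.41-fold below solvent with the low dose and had the solvent level with the high dose. The solvent arrays themselves differed, with a signal 7.04-fold higher in KKU-100 than in HuccT1, and the high-dose signal of HuccT1 did not reach the KKU-100 solvent signal. The probe set behind these values is of a kind that can match several genes. The second HERPUD1 probe set, with signals of 36.3 to 66.4, gave log2 fold changes of 0.36 and 0.65 in HuccT1 and of -0.46 and 0.11 in KKU-100. The signs were the same and the sizes smaller, except at the high dose in KKU-100, where the main probe set was at 0.01.

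Most other ERAD genes stayed within the cutoff. SEL1L, the adaptor of the ligase complex, was at 0.03 and 0.20 on the log2 scale against solvent in HuccT1, while KKU-100 had -0.58 and -0.24, the low dose there lying just inside the cutoff. The channel proteins DERL1, DERL2 and DERL3 lay between -0.10 and 0.07 in HuccT1 and between -0.50 and 0.18 in KKU-100. Further DERL1 probe sets past the level filter gave -0.45 and -0.39 at the low dose in HuccT1, beside -0.07. Between the doses there both were at 0.63, past the cutoff, beside 0.14. At the high dose in KKU-100 they were at -0.09 and -0.01, beside -0.50, so DERL1 depended on the probe set. A further DERL2 probe set of lower signal was past the cutoff at the high dose in both lines, at 130, 143 and 223 in HuccT1, against 166, 195 and 331 in KKU-100, so DERL2 depended on the probe set. For EDEM1 and EDEM2, which help to hand misfolded glycoproteins to ERAD, the values lay between -0.19 and 0.49 over both lines.

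EDEM3, a mannosidase of the same family, and SELENOS, a selenoprotein that links ERAD to the segregase VCP, were singled out after their values were seen. The signals of EDEM3 were 545, 416 and 585 in HuccT1, against 265, 140 and 218 in KKU-100, with the low dose 1.89-fold below solvent in KKU-100. The other 2 EDEM3 probe sets gave -1.02 and -0.63 there, beside -0.92. SELENOS had signals of 2489, 1902 and 2891 in HuccT1 and of 3680, 2798 and 3879 in KKU-100, and so had its lowest signal at the low dose in both lines.

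Of the 4 sensors and factors, 3 were past the cutoff in high-dose HuccT1 and 2 in low-dose KKU-100. ERN1 had signals of 490, 491 and 1180 in HuccT1 and of 435, 126 and 513 in KKU-100. Only the high-dose array stood out in HuccT1, at 2.41-fold above solvent, and only the low-dose array in KKU-100, at 3.46-fold below. These ERN1 values rest on 1 of 3 probe sets. A second one, with signals of 309, 192 and 146 in HuccT1 and of 66.4, 90.0 and 128 in KKU-100, was lower with each dose in the former and higher with each dose in the latter, so that the direction for ERN1 depended on the probe set in both lines. Which transcript ends these probe sets read was not examined.

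EIF2AK3 had signals of 292, 338 and 780 in HuccT1 and of 1106, 443 and 701 in KKU-100. It was 2.67-fold above solvent at the high dose in HuccT1. In KKU-100 it was 2.50-fold below solvent with the low and 1.58-fold below with the high dose, and its solvent signal there was 3.79-fold that of HuccT1. Its second probe set had signals of 6.47 to 7.48, below the level filter, and gives no check.

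XBP1 had signals of 482, 640 and 994 in HuccT1 and of 850, 682 and 1046 in KKU-100. The high dose was 2.06-fold above solvent in HuccT1, and the KKU-100 arrays stayed within the cutoff. ATF6 had signals of 389, 464 and 542 in HuccT1 and of 389, 385 and 552 in KKU-100. Its log2 fold changes were 0.25 and 0.48 on the log2 scale in HuccT1 and -0.02 and 0.51 for KKU-100, all within the cutoff. ATF6 has 4 probe sets, all past the level filter. With the high dose, a further one fell slightly below solvent in HuccT1 (-0.03) and farther below it in KKU-100 (-0.31). The remaining ones rose, by 0.27 and 0.50 in the former line and by 0.36 and 0.37 in the latter. The direction for ATF6 after the high dose thus depended on the probe set.

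Of the 4 genes of translocation, export and oxidation, only SEC24D passed the cutoff, and it was singled out after its values were seen. SEC24D is a cargo-selecting subunit of the COPII coat, which carries proteins from the ER to the Golgi. Its signals were 175, 195 and 497 in HuccT1, where the high dose was 2.84-fold above solvent, and 313, 263 and 412 in KKU-100. The disulfide oxidase ERO1A had signals of 3285, 3506 and 3215 in HuccT1 and of 1764, 1666 and 1622 in KKU-100, and its 2 further probe sets were at -0.46 and -0.39 at the high dose in HuccT1, beside -0.03. ERO1B, the second oxidase, was near the floor in HuccT1, at 17.4 to 22.3, and had signals of 221, 158 and 188 in KKU-100. SEC61B, a subunit of the translocon, lay between -0.06 and 0.09 on the log2 scale against solvent.

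The probe set that stands for a gene decided its call in other cases too. In at least 1 comparison with solvent, 11 genes had a further probe set past the cutoff where their own was not, among them SEL1L at -0.70 for the high dose in KKU-100, SEC61B at -0.88 for the low dose there, and ERO1B there at -1.41 with the low and -1.42 with the high dose.

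**Figure D3:**
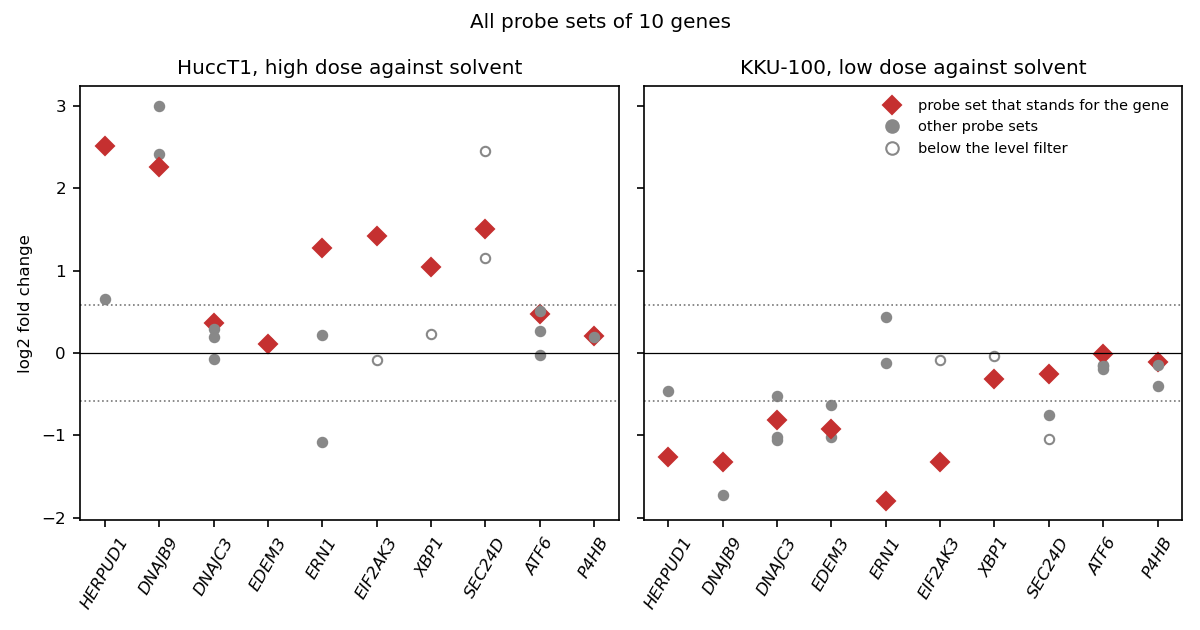
Log2 fold change of every probe set annotated to 10 of the genes alone, for the high dose in HuccT1 (left) and the low dose in KKU-100 (right), with diamonds for the probe set that stands for the gene, grey circles for the others, open circles below the level filter and dotted lines at 1.5-fold. The DNAJB9 and EDEM3 probe sets lie together, whereas those of ERN1 lie on both sides of 0.

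The chaperones and the ERAD genes were then compared as groups. In HuccT1 the low-dose and high-dose medians of the log2 fold change were -0.09 and 0.15 for the chaperones and -0.07 and 0.10 for the ERAD genes, beside 0.02 and 0.02 over all genes. In KKU-100 the chaperone medians were -0.06 and 0.13 and the ERAD medians -0.40 and 0.01, beside 0.06 and 0.06 over all genes. At the low dose of KKU-100 the values ran from -1.33 to 0.18 for the chaperones and from -1.27 to 0.15 for the ERAD genes, and without probe sets that can match several genes the medians there were -0.11 and -0.17. That setting leaves SEL1L, EDEM3 and SELENOS (-0.58, -0.92 and -0.40 above) without a probe set, and also the chaperones HSP90B1, HYOU1 and SDF2L1 (-0.05, -0.29 and 0.08). The smaller gap there was therefore read over fewer genes as well as from other probe sets. Each group had 1 gene past the cutoff at the high dose in HuccT1 (DNAJB9 and HERPUD1) and 2 in low-dose KKU-100 (DNAJB9 and DNAJC3, EDEM3 and HERPUD1). The sensors had medians of 0.23 and 1.16 in HuccT1 and of -0.82 and 0.27 in KKU-100. With the median over all probe sets of each gene, the sensor median was 0.71 in high-dose HuccT1 and -0.24 in low-dose KKU-100. No test between the groups was made, as genes of 1 array are not replicates.

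The genes with and without an ERSE were then set side by side. Those with ERSE had a median of 0.14 at the high dose in HuccT1 over 7 genes, with XBP1 alone past the cutoff, and of -0.06 in low-dose KKU-100 over 8 genes, with none past it. With ERSE-II counted too, the medians were 0.18 over 10 genes, with 2 higher (HERPUD1 and XBP1), and -0.08 over 11 genes, with 1 lower (HERPUD1). The 18 genes with neither ERSE nor ERSE-II had medians of 0.16 and -0.15 in the same comparisons, with 3 higher, beside 8.23% of all genes, and 5 lower, beside 7.32%. At the high dose in KKU-100 the medians were 0.14 with ERSE, 0.16 with ERSE or ERSE-II and 0.00 with neither element. Between the doses there they were 0.18, 0.21 and 0.30. DNAJB9, EIF2AK3 and ERN1 are among these 18 genes, and HERPUD1, with ERSE-II and the ATF4 element, is not.

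**Figure D4:**
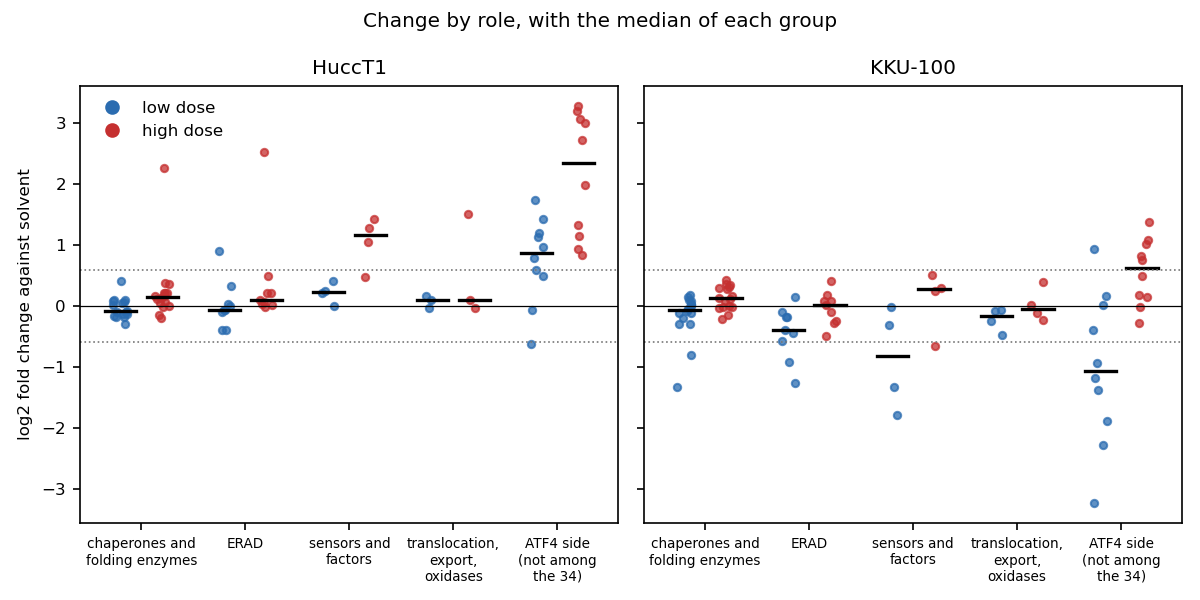
Log2 fold changes against solvent at the low dose (left of each pair) and the high dose (right of each pair) for the genes of each role that passed the level filter, and for 10 genes on the ATF4 side that are not on the list, with bars at the medians and dotted lines at 1.5-fold. The chaperone medians lie between -0.09 and 0.15 in all 4 comparisons, while the ATF4 side runs from -1.06 in low-dose KKU-100 to 2.35 at the high dose in HuccT1.

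A small set of genes differed in opposite directions in the lines when unlike doses were set side by side. HuccT1 at the high dose and KKU-100 at the low dose, each against its own solvent, share no array. Of the 32 genes past the level filter in both lines, 4 (DNAJB9, HERPUD1, ERN1 and EIF2AK3) were higher in the former and lower in the latter, which was the case for 1.25% of 12033 genes. Pearson's r across the 32 genes was -0.71 and Spearman's rho -0.47, beside an r of -0.06 across all 12033 genes. Without these 4 genes r was -0.16 over 28 genes. The 4 genes were picked for lying past the cutoff in these directions, so a weaker r without them was built in. For ERN1 the direction depended on the probe set. At a shared dose, only HERPUD1 (low dose) and EIF2AK3 (high dose) were past the cutoff in opposite directions in the lines. The lines could not be tested against each other, with 1 array per condition.

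Read from the probe set that stands for each gene, the low-dose array was often the lowest of a line. In KKU-100 the low-dose array was the lowest of the 3 for 23 of 33 genes, beside 28.3% of all genes, and this held for all 4 sensors and for 7 of 9 ERAD genes. In HuccT1 it was the lowest for 15 of 32 genes, beside 28.2% of all genes, for 6 of 9 ERAD genes and for no sensor. In HuccT1 all 4 sensors had a signal that climbed from solvent through the low to the high dose, although ERN1 stood at 490 and 491 on the solvent and low-dose arrays. Neither order of the sensors held for the further ERN1 probe sets or for a further ATF6 probe set. The latter had signals of 295, 295 and 289 in HuccT1 and of 271, 244 and 218 in KKU-100.

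For most genes, read from the probe set that stands for each, the high dose against the low dose gave the same direction in both lines. In HuccT1, 8 genes were higher (the 6 above, DNAJC3 and SELENOS), beside 6.57% of all genes, and none was lower, beside 4.64%. In KKU-100, 9 genes were higher (DNAJB9, DNAJC3, HYOU1, EDEM3, HERPUD1, EIF2AK3, ERN1, XBP1 and SEC24D), beside 4.53%, and none was lower, beside 1.74%. In both lines 7 genes were higher, which is 87.5% of the HuccT1 genes and 77.8% of the KKU-100 genes, beside 2.16% of all 12033 genes. Over all genes, the shared genes were 33.0% and 50.4% of those higher in HuccT1 and in KKU-100.

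Between the doses DNAJB9 differed by 3.60-fold in HuccT1 and 2.75-fold in KKU-100, HERPUD1 by 3.05-fold and 2.43-fold, SEC24D by 2.55-fold and 1.56-fold, and ERN1 by 2.40-fold and 4.09-fold. The ERN1 value rests on the probe set named above, and the median over its 3 probe sets was -0.23 on the log2 scale in HuccT1 and 0.51 in KKU-100. Of the 32 genes, 26 had a positive value in both lines, beside 32.8% of all genes, and Pearson's r between the lines was 0.84, beside 0.55 over all genes. The chaperone medians were 0.16 and 0.18 on the log2 scale, and the ERAD medians 0.16 and 0.33. In KKU-100 the high-dose array lay within 1.5-fold of the solvent array for 32 of the 33 genes, as it did for 10879 of 12694 genes.

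**Figure D5:**
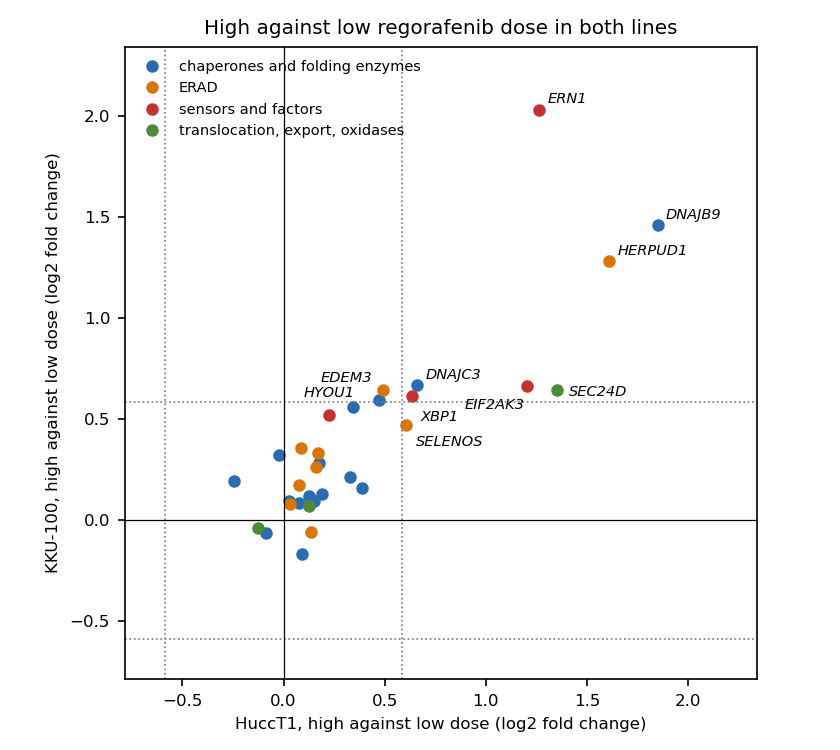
Log2 fold change of the high against the low dose in HuccT1 (horizontal) and in KKU-100 (vertical) for the 32 genes past the level filter in both lines, coloured by role, with dotted lines at 1.5-fold and names for genes past it in either line. ERN1, DNAJB9 and HERPUD1 lie farthest from the origin, most chaperones lie between 0 and the cutoff, and no gene lies below the lower cutoff in either line.

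A limma fit over all 6 arrays, blocked by cell line, tested for differences shared by the lines. After Benjamini-Hochberg adjustment over 12833 genes none of the 33 genes passed at the low dose, at the high dose or between the doses, and 0% of all genes passed in each. At an unadjusted p under 0.05, 5 of the 33 genes passed for the low dose, beside 11.2% of all genes, 7 for the high dose, beside 14.9%, and 10 for the high against the low dose, beside 10.4%. For the high dose HSPA5 had the smallest adjusted p in limma, 0.17, at a log2 fold change of 0.29 ± 0.06 (SE). Between the doses its log2 fold change was 0.45 ± 0.06, with an unadjusted limma p of 0.000623 and an adjusted p of 0.35, and the high dose was above the low dose in both lines. The second HSPA5 probe set was at -0.25 between the doses in HuccT1 and at 0.91 in KKU-100, and the median of both probe sets in HuccT1 was 0.05. At the low dose SELENOS had the smallest adjusted p in limma, 0.38, at -0.39 ± 0.08. The genes with the largest differences within a line had wide errors, as with HERPUD1 at the high dose (1.26 ± 0.59, adjusted p 0.39 in limma) and EIF2AK3 (0.38 ± 0.48, adjusted p 0.77). Some of the 33 genes were called when a solvent array was left out, but such a fit has fewer residual degrees of freedom. Its contrasts against solvent rest on the solvent array of 1 line. Its contrast between the doses uses no solvent array but takes its error from the same reduced fit. None of the calls of such a fit is therefore read here. With 2 residual degrees of freedom in the fit of all 6 arrays, the absence of a call does not show that a gene was unchanged.

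Genes of the same pathways outside the list were read from further lists. Of 22 other folding and response genes, 19 passed the level filter. At the high dose 2 of these were higher and 1 lower in HuccT1, and 1 was higher in KKU-100. CREB3L2, an ER-bound transcription factor, was at 0.68 and 0.83 on the log2 scale in HuccT1 and KKU-100, higher in both. HSPA13, an Hsp70-like ATPase, was at 0.94 and -0.09, with -0.72 in low-dose KKU-100. MBTPS1, the protease that makes the first cut in ATF6, was at -0.63 and -0.48.

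Of 20 other ERAD genes, 18 passed the level filter, and none was past the cutoff in HuccT1 at either dose. RNF139, an ER ubiquitin ligase, was the only 1 past it in KKU-100, at -0.84 with the low and -0.59 with the high dose. Of 22 other genes of the translocon and the COPII coat, 21 passed the filter. At the high dose in HuccT1 SEC24A, a cargo-selecting coat subunit like SEC24D, was at 0.68 and SPCS3, a subunit of the signal peptidase, at -0.67, and no gene was past the cutoff at the high dose in KKU-100.

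The 10 genes on the ATF4 side (ATF4, ATF3, DDIT3, TRIB3, CHAC1, ASNS, SESN2, PPP1R15A, VLDLR and CEBPB) were read in the same way. Their HuccT1 medians were 0.87 with the low and 2.35 with the high dose, with 6 and 10 of the 10 genes higher and 1 lower at the low dose, PPP1R15A, at -0.62. Their KKU-100 medians were -1.06 and 0.62, with 6 genes lower and 1 higher after the low dose and 5 higher after the high dose. DDIT3, the transcription factor CHOP, had signals of 316, 726 and 2898 in HuccT1 and of 1177, 451 and 2066 in KKU-100. ATF4 itself had signals of 3397, 5817 and 6506 in HuccT1 and of 7049, 5357 and 6958 in KKU-100. CHAC1, a glutathione-degrading enzyme, was at 2.99 and 1.01 on the log2 scale at the high dose, and ATF3, a stress-induced factor, at 3.06 and 0.49. Like HERPUD1 and DNAJB9, DDIT3 and ATF4 had a higher solvent signal in KKU-100 than in HuccT1 and their lowest KKU-100 signal at the low dose.

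Of 12 cytosolic and mitochondrial chaperones, 9 passed the level filter and none was past the cutoff in HuccT1 at either dose. In KKU-100 DNAJB1 and HSPH1 were lower at the low dose, and DNAJA1 with them at the high dose. DNAJB1, a heat-shock-induced co-chaperone, had signals of 2675, 1050 and 890 there, and so did not return to the solvent level at the high dose.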

How the data were processed

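The authors deposited linear intensities for each probe set. The submitters' processing notes name MAS5, with no version. No scaling was added here beyond log2. The 62 control probe sets were left out. Of the others, 41091 carry 1 gene symbol, 1801 several and 11721 none in the platform annotation, and genes were named only from the first kind. Of several probe sets, the one with the highest mean log2 signal stands for the gene. The level filter required, in each line, a mean log2 signal at or above the 50th percentile of all probe sets (12789 genes in HuccT1, 12694 in KKU-100, 12833 over all 6 arrays). Fold changes compare 2 arrays and carry no error, and the number of arrays is what limits precision.

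All 6 arrays were fitted in limma 3.58.1 under R 4.3.3, with dose as a factor, the line as a block and a trended variance prior, which left 2 residual degrees of freedom and added 3.42 from the prior. Calls were made at a Benjamini-Hochberg adjusted p of 0.05, and the script was first tested on simulated data. The labels do not say whether the lines were treated in parallel. Python 3.11.15 with pandas 2.3.3 and numpy 2.4.6 was used for the rest.

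The 34 genes, their roles and the further lists were chosen with earlier results of these data known. Values on every array are given for HSPA5, HSP90B1, DNAJB9, HERPUD1, XBP1, ATF6, ERN1, EIF2AK3 and ERO1A, and for any that passed 1.5-fold in 1 direction at both doses of a line or at the high dose of both lines. Other genes of the list were singled out after their values were seen, as the text says. From each further list up to 3 genes were named, those past the cutoff at the high dose with the largest mean difference, and ATF4 and DDIT3 were added. The alternatives were quantile normalization, centring on the median, signals floored at the 20th percentile, no level filter, the median of all of a gene's probe sets, only probe sets specific to a gene, a cutoff of 2-fold, DNAJB9 and DNAJC10 counted with ERAD, and for limma also all probe sets, other variance priors, the dose rank fitted linearly, each array left out in turn and the methods' t-test.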

Additional observations from a re-analysis of the deposited data

Results flagged for a closer look

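For HERPUD1 at the low dose, the arrays moved in opposite directions past 1.5-fold in the lines, at 0.91 in HuccT1 and -1.27 in KKU-100 on the log2 scale, a gap of 2.17. The difference was not tested, as each condition has 1 array. The same was seen for EIF2AK3 at the high dose, at 1.42 in HuccT1 and -0.66 in KKU-100, a gap of 2.07, and this difference was not tested either.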

How the results depend on the processing

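Quantile normalization, centring on the median, a floor at the 20th percentile and dropping the level filter left every count of genes past the cutoff within 1.5 times its value. Without probe sets that can match several genes, which leaves 6 of the genes without a probe set, 0 genes were higher and 1 (DERL3) lower at the low dose in HuccT1, and the ERAD median in KKU-100 was -0.17 at the low dose and 0.17 between the doses. At a 2-fold cutoff, 0 genes were higher at the low dose in HuccT1, 5 between the doses in HuccT1 and 3 in KKU-100, and 0 were lower in high-dose KKU-100. The share of all genes was not counted under this or the other settings of this paragraph. These counts show only how the calls depended on the setting. With the median over all probe sets, 2 genes (ERO1B and EIF2AK3) were lower in high-dose KKU-100, the ERAD median between the doses in HuccT1 was 0.36, and ERN1 between the doses in HuccT1 turned to -0.23, since its probe sets disagree. Counting DNAJB9 and DNAJC10 with ERAD moved no median of either group by more than the residual SD of 0.15.

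In limma, the genes called ranged from 0 to 7 for the low dose, from 0 to 6 for the high dose and from 0 to 8 between the doses when 1 array was left out. The 7 came without the HuccT1 solvent array, the 6 without the KKU-100 solvent array and the 8 without either of these, fits with 1 array of solvent that is assumed to vary like the others. The cause was not tested. All probe sets, other variance priors, quantile normalization, no level filter and dose rank as a linear term called 0. After adjustment the methods' t-test called 0 of the 33 genes for the low dose, the high dose and between the doses. It then called 0, 1 and 2 of all genes. The limma fit is itself paired by line, since the line is its block.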
